A study of Homo sapiens with 12 samples.

Results

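Prostaglandin E2 (PGE2) synthesis, reception, and breakdown were followed through 9 genes of the 58735 in the count table of Arg-treated TIGK cells. The genes were taken by their symbols: PLA2G4A, PTGS1, PTGS2, PTGES, PTGES2, PTGES3, PTGER2, PTGER4, and HPGD. All 9 were found. They are the genes of 1 pathway, chosen by a reading of earlier results on Arg against control in these same libraries, so their values are given as a description, without p-values. TIGK cells are human gingival keratinocytes, a single line that was made immortal by telomerase (hTERT). The cells were kept in high glucose (48 mM) in a base medium without Arg. The paper lists supplements that were added to this medium as needed. They were the hormones insulin, epinephrine, and hydrocortisone hemisuccinate, the growth factor TGF-α, pituitary extract, apo-transferrin, L-lysine, and L-glutamine. The cells received 500 μM L-Arg or no Arg (untreated control) for 24 or 48 h. Poly(A) RNA of 3 libraries per group (A, B, and C) was sequenced, 12 libraries in all. High glucose was thus common to all 4 groups. Which of the supplements the sequenced cultures held is not stated. A library held between 16542243 and 19040964 counts.

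PGE2 is made from arachidonic acid. Cytosolic phospholipase A2 (PLA2G4A) releases arachidonic acid from membrane phospholipids, the cyclooxygenases (PTGS1, the constitutive form, and PTGS2, the inducible form) turn it into the unstable prostaglandin H2, and a terminal PGE synthase turns that into PGE2. PTGES is the inducible microsomal synthase, PTGES2 another membrane-associated synthase, and PTGES3 the cytosolic synthase, which is also the HSP90 co-chaperone p23. PTGER2 and PTGER4 encode the receptors EP2 and EP4, which raise cyclic AMP, and HPGD encodes the dehydrogenase that begins the breakdown of PGE2. In epithelia such as the gingiva and the skin, PGE2 is known for its part in inflammation and wound repair. Glucocorticoids such as hydrocortisone are known to repress PTGS2 in many cell types.

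The stretch of 250 bases before the start of PTGES, PTGS2, and PTGS1 is shown because these genes carry the comparisons of cyclooxygenase and inducible synthase. The sequences are from RefSeq on GRCh38.p14, in which all 9 genes were matched, and are written 5′ to 3′ on the strand of the gene. They cover chr9:129753043-129753292 (minus strand) for PTGES, chr1:186680424-186680673 (minus strand) for PTGS2, and chr9:122370283-122370532 (plus strand) for PTGS1. Capitals mark matches to 7 motifs searched on both strands, namely TATAAA, the EGR motif GCGTGGGCG, the CRE TGACGTCA, its core TGACG (which every full CRE also holds), the AP-1 motif TGANTCA, the C/EBP motif TTNNGNAA, and the NF-kappaB consensus.
PTGES: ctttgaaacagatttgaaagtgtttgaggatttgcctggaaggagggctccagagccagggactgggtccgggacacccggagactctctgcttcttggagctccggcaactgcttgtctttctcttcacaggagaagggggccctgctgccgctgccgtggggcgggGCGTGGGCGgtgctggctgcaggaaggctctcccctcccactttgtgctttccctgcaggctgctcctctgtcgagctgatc
PTGS2: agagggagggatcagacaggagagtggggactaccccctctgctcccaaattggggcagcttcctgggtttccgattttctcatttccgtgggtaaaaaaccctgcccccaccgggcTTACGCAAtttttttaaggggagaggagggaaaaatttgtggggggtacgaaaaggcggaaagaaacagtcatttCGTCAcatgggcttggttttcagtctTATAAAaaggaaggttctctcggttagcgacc
PTGS1: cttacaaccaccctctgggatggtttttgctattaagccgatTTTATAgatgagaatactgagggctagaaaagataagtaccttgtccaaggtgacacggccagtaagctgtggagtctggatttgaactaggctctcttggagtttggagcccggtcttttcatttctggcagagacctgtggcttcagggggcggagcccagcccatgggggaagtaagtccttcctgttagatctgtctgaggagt

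PTGES held the EGR motif 82 to 74 bases before its start. This motif stood in 0.72% of the 35116 starts in the RefSeq table. PTGS2 held TATAAA 32 to 27 bases before its start, a match found in 10.7% of all starts. It also held the core of the CRE on the opposite strand at 58 to 54 bases (21.2% of all starts) and the C/EBP motif, matched on both strands, at 133 to 126 bases (33.2% of all starts). The only match in PTGS1 was TATAAA on the opposite strand, 208 to 203 bases before the start. Of the other 6 genes, PTGES3, PTGER2, and HPGD held the core of the CRE, PTGER4 held the NF-kappaB consensus (5.21% of all starts), and PLA2G4A and PTGES2 held none of these motifs in this stretch. The full CRE (1.65% of all starts) and the AP-1 motif (6.57%) stood before none of the 9 starts. The RefSeq start lay 417 bases inside the gene of the count table for PTGER4, 261 for HPGD, and 124 for PTGES3. In these genes, part or all of the searched stretch thus lies within the gene as counted. The motifs are matches of letters only.

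The libraries were checked against cell type markers. Over the 12 libraries, the 8 keratinocyte markers summed to between 39455 and 51627 CPM (counts scaled to library size after TMM normalization), of which KRT5 alone made up between 24096 and 31666. The 7 fibroblast markers summed to between 30.2 and 102 CPM, nearly all of it from DCN and COL1A1, while COL1A2 had 2 counts over all libraries, COL3A1 14, and PDGFRA 12. The 10 markers of immune cells, endothelium, and melanocytes summed to between 4.07 and 8.49 CPM. The highest were CD14 with 433 counts over all libraries, PMEL with 386, and VWF with 210, while PTPRC had 28 and CDH5 3. A lower level in these bulk samples can reflect fewer cells with the transcript or less transcript per cell, which cannot be told apart.

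Control replicate B at 48 h stood apart from the other 48 h control libraries. Over genes with at least 20 counts, its counts differed from those of replicates A and C with a chi-square per degree of freedom of 20.9 and 23.9, against 3.66 to 12.5 in all other replicate pairs. In 5 of the 9 genes (PLA2G4A, PTGS1, PTGES, PTGES2, and PTGES3) it lay within the range of the Arg libraries at 48 h. Control replicates A and C each lay within that range in 3 of the 9 genes (PLA2G4A, PTGS2, and HPGD). Over all tested genes, 45% lay within the range of the Arg libraries in replicate B, against 36.1% in replicate A and 35.1% in replicate C. The log2 fold changes and ratios at 48 h are therefore given both with and without this library. Because it lay within the Arg range in PTGS1, PTGES, and PTGES2, leaving it out widened the difference in these genes. Calls on them without this library follow in part from that choice and are a description only. Mitochondrially encoded genes took 1.55% of its counts, against 0.906% and 0.707% in control replicates A and C and 1.14% to 1.31% in the Arg libraries at 48 h. At 24 h, their share was lower with Arg (0.624% to 0.802%) than in the control (1.20% to 1.30%), and at 48 h without control replicate B it was higher with Arg. Over time it was higher at 48 h in all Arg libraries. Its part in the results was not tested.

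The levels of the 9 genes were compared per kb of exonic length. PTGES3 had the highest level in each of the 4 groups and HPGD the lowest. In the 24 h control, PTGES3 stood at 227 ± 11.9 CPM per kb (mean ± SD, n = 3), followed by PTGES at 180 ± 19.9 and PTGES2 at 39.3 ± 2.66. These 3 synthases did not overlap in that group, so PTGES ranked close behind the co-chaperone gene and well above the other microsomal synthase. PTGER2 at 9.30 ± 0.854 and PTGS1 at 9.02 ± 0.445 CPM per kb came next and overlapped. PLA2G4A followed at 5.67 ± 1.12 CPM per kb. PTGS2 at 2.16 ± 1.10 and PTGER4 at 1.76 ± 0.327 CPM per kb overlapped. HPGD stood at 0.119 ± 0.0301 CPM per kb, the only 1 of the 9 means below 1 CPM per kb in the 24 h control. PTGS1 was thus more abundant per length than PTGS2 in every library, and PTGER2 more abundant than PTGER4.

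**Figure D1:**
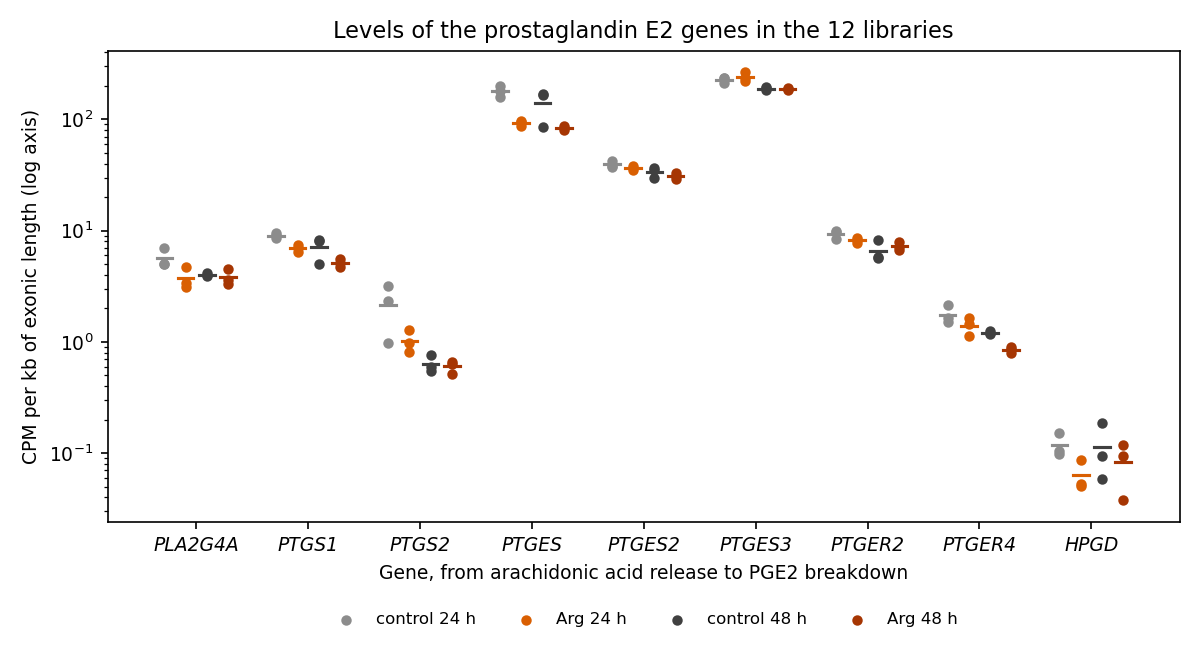
Levels of the 9 prostaglandin E2 genes, in CPM per kb of exonic length on a log axis, in the 12 libraries. Points are libraries (3 per group) and short bars are group means. In PTGES and PTGS1, every control library except replicate B at 48 h lies above the Arg libraries of the same time.

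At 24 h, 4 genes of PGE2 synthesis fell with Arg, and PTGES2, PTGES3, and the receptor genes did not pass the test. Of the 8 genes that passed edgeR's filter on low counts, 4 had an adjusted p under 0.05 (PLA2G4A, PTGS1, PTGS2, and PTGES), all 4 fell, and 0 rose. The p-values come from edgeR's quasi-likelihood test, adjusted by Benjamini–Hochberg over all tested genes, and a gene that "passed" is under 0.05 in this sense. Among all 14279 genes tested at 24 h, 3.84% fell and 6.63% changed in either direction at this threshold. Because the same comparison was known when the genes were chosen, nothing is read from the difference between these shares. The median log2 fold change (Arg over control) was −0.36 over the 8 genes and 0.0030 over all tested genes. In 3 of the 8 genes (PLA2G4A, PTGS1, and PTGES) the 3 Arg libraries lay below the 3 control libraries without overlap, as they did in 13.4% of all tested genes. The count of 4 changed with the library left out. It was 1 (PTGES) without control replicate A, control replicate C, or Arg replicate C, and 2 (PTGES and PTGS1) without Arg replicate B. Such fits have fewer libraries in 1 group, and the part of this in the lost calls was not tested. The share of all tested genes that passed in these fits is not given here. The drop is therefore not read as particular to these genes. Of the cell type markers, only DCN and ITGA6 passed with Arg at 24 h. Log2 fold changes lay below 0 in 2 of the 4 tested fibroblast markers and in 2 of the 8 keratinocyte markers, and the DCN groups overlapped. The fibroblast marker DCN fell from a mean of 31.7 to 19.5 CPM (log2 fold change −0.70, edgeR's adjusted p = 0.0294), the 1 of 4 tested fibroblast markers to pass, and the summed list lay between 34.2 and 54.4 CPM in the control and between 30.2 and 41.3 CPM with Arg. Of the 8 keratinocyte markers, 1 passed, ITGA6, which fell from 1027 to 780.3 CPM (−0.40, adjusted p = 0.00840), and the summed list lay between 39455 and 45956 CPM in the control and between 44144 and 51627 CPM with Arg. The part of these markers in the result was not tested.

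PLA2G4A (ENSG00000116711, chromosome 1, 186828953 to 186988981, plus strand of GRCh38), which supplies the arachidonic acid, fell with Arg at 24 h. Its level was 14.5, 14.4, and 20.03 CPM in control replicates A, B, and C and 13.5, 8.90, and 9.67 CPM in the Arg replicates. The groups did not overlap, although Arg replicate A came close to the control, and control replicate C was the highest of all 12 libraries. Its log2 fold change was −0.61 (standard error 0.18). It was −0.69 without control replicate A, −0.44 without control replicate C, −0.50 without Arg replicate B, and −0.54 without Arg replicate C, and in these 4 cases it did not pass. At 48 h, PLA2G4A stood at 12.1, 11.2, and 11.5 CPM in the control and 13.0, 10.3, and 9.61 CPM with Arg. The 3 control values lay inside the span of the Arg values, and the log2 fold change was −0.078 (standard error 0.15), or −0.10 (standard error 0.15) without control replicate B.

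PTGS1 (ENSG00000095303, chromosome 9, 122370530 to 122395703, plus strand), the constitutive cyclooxygenase, fell with Arg at 24 h by a small margin. It stood at 49.5, 52.5, and 54.6 CPM in the control and at 37.0, 43.2, and 40.3 CPM with Arg, with no overlap. The log2 fold change was −0.38 (standard error 0.094). It was −0.42 without control replicate A, −0.35 without control replicate C, and −0.38 without Arg replicate C, and did not pass in these cases. With all 12 libraries in a single model, which raised the standard error to 0.13, it did not pass either. At 48 h, PTGS1 stood at 47.3, 29.0, and 46.7 CPM in the control and 27.3, 29.5, and 32.0 CPM with Arg. Control replicates A and C were above all Arg libraries and control replicate B was among them, so the groups overlapped. The log2 fold change of −0.47 (standard error 0.16) did not pass. Without control replicate B it was −0.67 (standard error 0.088) and passed. PTGS1 (8852 counts over all libraries) overlaps AL162424.1 on the same strand, which had 11 counts.

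PTGS2 (ENSG00000073756, chromosome 1, 186671791 to 186680427, minus strand), the inducible cyclooxygenase, had the largest log2 fold change of the 8 genes at 24 h and the widest spread. Its level was 12.3, 5.13, and 16.6 CPM in the control and 6.68, 5.12, and 4.24 CPM with Arg. Control replicate B lay inside the range of the Arg libraries, while control replicates A and C were above it. Its log2 fold change of −1.09 (standard error 0.30) passed in edgeR, and in DESeq2 it was −1.09 with a standard error of 0.51 and did not pass. It did not pass in edgeR either without control replicate A (−1.02), control replicate C (−0.72), Arg replicate B (−1.06), or Arg replicate C (−0.94). At 48 h, PTGS2 stood at 2.88, 3.99, and 3.16 CPM in the control and 2.71, 3.33, and 3.51 CPM with Arg. The groups overlapped, and the log2 fold change was −0.077 (standard error 0.25). Its sign turned without control replicate B, at 0.071 (standard error 0.28). Per kb, the ratio of PTGS2 to PTGS1 was 0.238 ± 0.117 in the 24 h control, 0.148 ± 0.0441 with Arg at 24 h, 0.0975 ± 0.0466 in the 48 h control, and 0.118 ± 0.00786 with Arg at 48 h. These ranges overlapped between Arg and control at both times, but without control replicate B the 48 h control ratios were 0.0669 and 0.0744, both below the Arg range of 0.109 to 0.124. This separation follows in part from the choice to leave that library out, since its PTGS1 level lay among the Arg libraries.

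PTGES (ENSG00000148344, chromosome 9, 129738331 to 129753047, minus strand), the inducible synthase, fell at 24 h in each fit with 1 library left out. The control replicates stood at 378, 303, and 342 CPM and the Arg replicates at 167, 179, and 184 CPM. Every Arg library was far below every control library. The log2 fold change was −0.95 (standard error 0.088), and it lay between −1.03 and −0.87 in the 6 fits that omitted a library. At 48 h, the control replicates stood at 314, 160, and 323 CPM and the Arg replicates at 159, 151, and 166 CPM. Control replicates A and C lay within the range of the 24 h control, and control replicate B lay within the range of the Arg libraries. The log2 fold change at 48 h was −0.74 (standard error 0.19) and did not pass, whereas without control replicate B it was −1.005 (standard error 0.057) and PTGES fell.

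**Figure D2:**
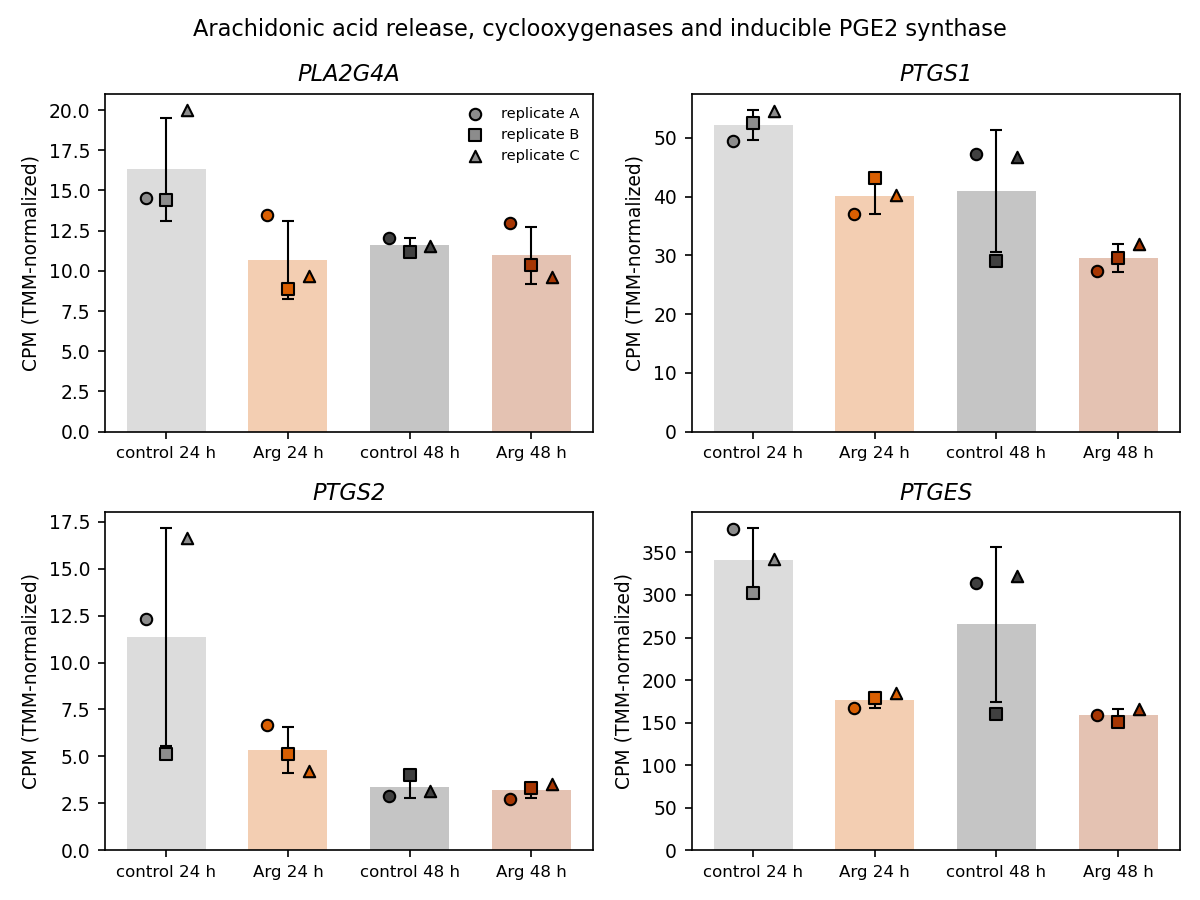
CPM after TMM normalization of PLA2G4A, PTGS1, PTGS2, and PTGES in the 12 libraries. Bars are group means from 0, error bars are SD (n = 3), and the marker shape gives the replicate letter. In PTGES, the Arg libraries at 24 h (167 to 184 CPM) lie below the control libraries (303 to 378 CPM), and at 48 h control replicate B (160 CPM) lies with the Arg libraries (151 to 166 CPM).

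PTGES2 (ENSG00000148334, chromosome 9, 128120693 to 128128462, minus strand), the other microsomal synthase, differed little. At 24 h it stood at 129, 116, and 114 CPM in the control and 110, 108, and 116 CPM with Arg, so the groups overlapped, and the log2 fold change of −0.10 (standard error 0.083) did not pass. At 48 h it stood at 110, 90.6, and 108 CPM in the control and 88.8, 93.5, and 99.9 CPM with Arg. Here too control replicate B lay among the Arg libraries, and the log2 fold change was −0.13 (standard error 0.083) with it, which did not pass, and −0.21 (standard error 0.066) without it, which passed.

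PTGES3 (ENSG00000110958, chromosome 12, 56663341 to 56688408, minus strand), the cytosolic synthase and co-chaperone, was close to even between Arg and control. The control replicates stood at 792, 725, and 797 CPM and the Arg replicates at 902, 757, and 791 CPM at 24 h. At 48 h the values were 618, 653, and 659 CPM in the control and 622, 654, and 635 CPM with Arg. The groups overlapped at both times. The log2 fold changes, 0.081 (standard error 0.081) at 24 h and −0.016 (standard error 0.056) at 48 h, did not pass. Without control replicate B, the value at 48 h was −0.0038 (standard error 0.053). Its 5 annotated pseudogenes took few counts, with 57 for PTGES3P1 and between 0 and 8 for the others, against 155710 for PTGES3 itself. RN7SL809P, which overlaps it on the same strand, had 10 counts.

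The makeup of the 3 terminal synthases, as their transcripts per kb, differed between the groups mainly through PTGES. PTGES made up 42.0%, 38.8%, and 39.9% of their sum in the control replicates at 24 h and 22.6%, 26.8%, and 26.4% in the Arg replicates. At 48 h the shares were 43.1%, 27.6%, and 42.6% in the control and 28.3%, 26.3%, and 28.5% with Arg. The groups did not overlap at 24 h, and at 48 h control replicate B lay within the range of the Arg libraries. The per-kb ratio of PTGES to PTGES2 was 4.57 ± 0.339 in the control and 2.55 ± 0.117 with Arg at 24 h, and 4.07 ± 1.08 and 2.71 ± 0.144 at 48 h, where control replicates A and C alone had a mean of 4.68. Against PTGS1, which also fell at 24 h, PTGES stood at a per-kb ratio of 20.01 ± 2.96 in the control and 13.5 ± 0.717 with Arg at 24 h. At 48 h this ratio was 19.4 ± 2.24 in the control and 16.4 ± 1.17 with Arg, and the groups overlapped (16.9 to 21.1 against 15.6 to 17.8), but not without control replicate B (20.2 and 21.1). These shares and ratios use the same counts as the fold changes above and are no separate evidence.

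PTGER2 (ENSG00000125384, chromosome 14, 52314305 to 52328606, plus strand), which encodes EP2, stood at 24.5, 20.6, and 23.9 CPM in the control and 21.4, 20.4, and 19.3 CPM with Arg at 24 h. The groups overlapped through control replicate B, and the log2 fold change of −0.18 (standard error 0.12) did not pass. At 48 h the values were 14.0, 20.3, and 14.4 CPM in the control and 16.5, 19.7, and 17.7 CPM with Arg. Control replicate B was the highest of these 6 libraries and the other control libraries were the lowest. The log2 fold change was 0.14 (standard error 0.15) with control replicate B and 0.33 (standard error 0.12) without it, and neither passed.

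PTGER4 (ENSG00000171522, chromosome 5, 40679498 to 40693735, plus strand), which encodes EP4, stood at 6.44, 6.04, and 8.45 CPM in the control and 6.51, 5.70, and 4.46 CPM with Arg at 24 h. The groups overlapped, and the difference of −0.33 on the log2 scale (standard error 0.21) did not pass. At 48 h the control replicates stood at 4.98, 4.72, and 4.66 CPM and the Arg replicates at 3.13, 3.45, and 3.57 CPM. All Arg libraries were below all control libraries, control replicate B included, but the log2 fold change of −0.50 (standard error 0.21) did not pass, nor did that of −0.51 (standard error 0.24) without control replicate B. The per-kb ratio of PTGER2 to PTGER4 was 5.45 ± 1.27 in the 48 h control (4.73 without control replicate B) and 8.50 ± 0.608 with Arg, and it was 5.36 ± 0.788 and 5.99 ± 0.864 at 24 h. PTGER4 (1122 counts over all libraries) overlaps TTC33 on the opposite strand (2400 counts), and whether the counting used strand is not given in the sources used here, so its level is uncertain.

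HPGD (ENSG00000164120, chromosome 4, 174490177 to 174523154, minus strand), which inactivates PGE2, was near the limit of detection. It had 10, 15, and 10 counts in the control and 5, 5, and 9 counts with Arg at 24 h, and 10, 20, and 6 counts in the control and 4, 11, and 9 counts with Arg at 48 h. The groups did not overlap at 24 h and overlapped at 48 h. These counts correspond to between 0.208 and 1.04 CPM, and HPGD did not pass the filter on low counts in either comparison of Arg with control, so it was not tested there.

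At 48 h, 0 of the 8 tested genes passed in edgeR and 0 in DESeq2, and 3 (PTGS1, PTGES, and PTGER4) were lower at an unadjusted p under 0.05. Among all 14562 genes tested at 48 h, 0.117% passed at the adjusted threshold, and 7.49% were lower at the unadjusted one. The median log2 fold change was −0.10 over the 8 genes and 0.0018 over all tested genes. In 1 gene, PTGER4, the Arg libraries lay below the control libraries without overlap, as in 8.52% of all tested genes. Without control replicate B, 3 genes fell (PTGS1, PTGES, and PTGES2), beside 8.17% of all tested genes that fell and 15.9% that changed in either direction. Without a filter on low counts, 2 genes passed with all libraries included, PTGS1 (−0.48) and PTGES (−0.75), where 2.1% of all genes passed. The markers differed in the fit without control replicate B as well, with 2 keratinocyte markers higher and 1 lower of 8, 1 of 3 tested markers of immune cells, endothelium, and melanocytes lower, and 0 of 4 fibroblast markers changed, and their part in the result was not tested.

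**Figure D3:**
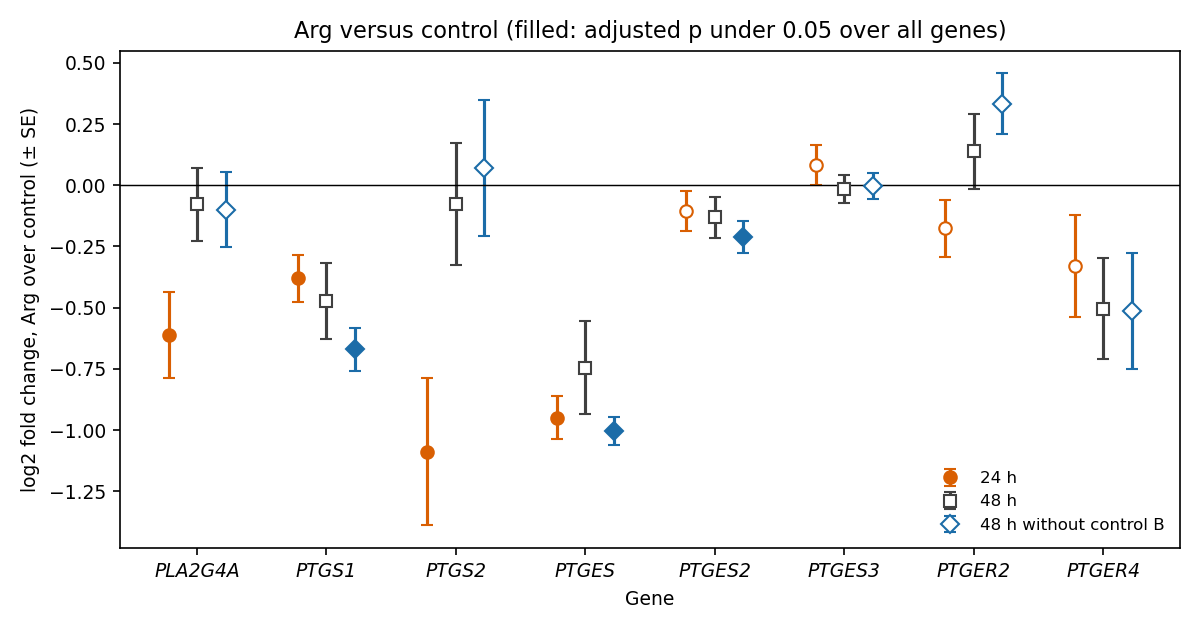
Log2 fold change of Arg over control, with its standard error, for the 8 tested genes at 24 h, at 48 h, and at 48 h without control replicate B. Filled symbols have an adjusted p under 0.05 over all genes. At 24 h, 4 symbols are filled, at 48 h 0, and without control replicate B 3, with PTGES at −0.95, −0.74, and −1.005.

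The difference between the Arg effects at the 2 times was fitted in a single model of all 12 libraries. Of the 9 genes, 0 passed at the adjusted threshold, at which 0.0132% of 15148 genes passed. At an unadjusted p under 0.05, 2 genes (PLA2G4A and PTGS2) had a higher log2 fold change at 48 h than at 24 h, as did 3.06% of all genes. The difference was 1.01 (standard error 0.44) for PTGS2 and 0.53 (standard error 0.24) for PLA2G4A. It was 0.21 (standard error 0.23) for PTGES and −0.092 (standard error 0.19) for PTGS1. The other 5 genes lay between −0.17 (PTGER4) and 0.42 (HPGD, standard error 0.84). A difference between the times was therefore not shown for any of these genes, although PTGS2 and PLA2G4A passed in edgeR at 24 h and not at 48 h.

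Time in culture was compared within each treatment. These comparisons use the same libraries as those of Arg with control, so their values are given side by side. In the untreated control, 4 of the 9 genes fell from 24 to 48 h (PLA2G4A, PTGS2, PTGES3, and PTGER2) and 0 rose, where 10% of 14449 genes fell and 19.9% changed in either direction. The 48 h libraries lay below the 24 h libraries without overlap in 7 of the 9 genes, as in 19.8% of all tested genes. With Arg, 5 of the 8 tested genes fell (PTGS1, PTGS2, PTGES2, PTGES3, and PTGER4) and 0 rose, where 14% of 14398 genes fell and 28.3% changed. Without overlap, 6 of the 8 were lower at 48 h, as in 21.2% of all tested genes.

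PTGS2 showed the largest log2 fold change with time, −1.76 (standard error 0.35) in the control and −0.75 (standard error 0.24) with Arg. In the control, all 48 h libraries (2.88 to 3.99 CPM) were below all 24 h libraries (5.13 to 16.6 CPM), and PTGS2 was the gene that fell in every fit without 1 control library. PTGES3 fell by 0.26 on the log2 scale in the control (standard error 0.068) and by 0.36 with Arg (standard error 0.068). PTGER4 was at −0.54 (standard error 0.20) in the control, which did not pass, and fell by 0.71 (standard error 0.22) with Arg. PTGER2 fell by 0.50 (standard error 0.15) in the control and was at −0.19 (standard error 0.11) with Arg, which did not pass.

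PTGES did not pass over time in either treatment with edgeR's filter on low counts. Its log2 fold change from 24 to 48 h was −0.36 (standard error 0.20) in the control and −0.15 (standard error 0.070) with Arg, which became −0.20 and passed without Arg replicate A at 24 h. PTGS1 was at −0.35 (standard error 0.15) in the control, which did not pass, and fell by 0.44 (standard error 0.095) with Arg. PLA2G4A fell by 0.49 (standard error 0.16) in the control and was at 0.044 (standard error 0.17) with Arg. Of the 4 groups, the 24 h control stood above the rest in PLA2G4A, with a mean of 16.3 CPM against 10.7 to 11.6 CPM. PTGES2 was at −0.21 (standard error 0.092) in the control and fell by 0.24 (standard error 0.073) with Arg. Without the filter on low counts, PTGES (−0.37) and PTGS1 (−0.35) also passed over time in the control, and without control replicate B they were at −0.097 and −0.15 with the filter and did not pass. HPGD, which could be tested over time in the control only, was at −0.055 (standard error 0.53).

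The number of calls over time also changed with the library left out. These fits too have fewer libraries in 1 group, and the part of this in the lost calls was not tested. The share of all tested genes that passed in them is not given here. The counts are therefore not read as particular to these genes. In the control, 1 gene (PTGS2) passed without 24 h replicate A, 24 h replicate C, or 48 h replicate A, 2 without 48 h replicate C, and 3 without 48 h replicate B. With Arg, 2 genes (PTGS1 and PTGES3) passed without 48 h replicate A, 3 without 48 h replicate B, and 4 without any 1 of the 24 h libraries. The fall of PTGER4 with Arg held in 2 of the 6 fits that omitted a library, that of PTGES2 in 3, and that of PTGS2 in 4. Those of PTGS1 and PTGES3 held in all 6. The summed fibroblast markers moved with time as well, from between 34.2 and 54.4 CPM to between 85.3 and 102 CPM in the control and from between 30.2 and 41.3 CPM to between 72.6 and 100.2 CPM with Arg. Of the 4 of 7 fibroblast markers that could be tested, 2 rose with time in each treatment. COL1A2, COL3A1, and PDGFRA stayed at or near 0 throughout, and the part of this change in the results over time was not tested.

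The genes whose log2 CPM followed PTGES most closely over the 12 libraries were THOC6, with a Pearson correlation of 0.990, AVPI1 (0.986), and SFRP1 (0.981), out of 15147 genes compared. Among the PGE2 genes, PTGS1 followed PTGES most closely (0.883), then PTGES2 (0.734), and PTGER2 least (0.045). PTGS2 was followed most closely by TMA16 (0.969) and CTSC (0.966), and among the PGE2 genes by PTGER4 (0.846) and PTGER2 (0.828). The correlation between PTGES and PTGS2 was 0.497. For HPGD, the closest were HSD17B1 (0.879), ZDHHC21 (0.800), and RAB18 (0.787), on between 4 and 20 counts of HPGD per library. The points are libraries of 4 groups, so these values reflect differences between groups as well as between replicates, and they are a description only.

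The rest of the prostanoid pathway was read from 65 other genes in 6 lists, of which 39 could be tested at 24 h. These lists too were chosen with earlier results of these data known, so their p-values are a description only. At 24 h, 1 gene fell, 0 rose, and 38 did not pass, beside 6.63% of all tested genes that passed, and the median log2 fold change was −0.054. The gene that fell was NR4A1, a nuclear receptor gene known to be induced by cyclic AMP and by many other stimuli. It went from a mean of 7.44 CPM to 3.98 CPM, a difference of −0.90 on the log2 scale with a standard error of 0.23 and an adjusted p = 0.0238 in edgeR's quasi-likelihood test, and the groups did not overlap. It did not pass without control replicate A, control replicate C, Arg replicate B, or Arg replicate C, in each of which 0 of the tested genes of these lists passed. At an unadjusted p under 0.05, 3 of these genes were higher and 5 lower, where 22.8% of all tested genes passed. At 48 h, 0 of 38 tested genes passed in edgeR or in DESeq2, with 2 higher and 5 lower at an unadjusted p under 0.05 (13.4% of all tested genes passed), and the median was −0.058.

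By list, the other phospholipase A2 genes had 5 of 16 members tested at 24 h, and 0 passed. The other prostanoid synthases had 4 of 7 tested and the other prostanoid receptors 1 of 7, and 0 passed in either. All 7 genes of PGE2 transport and breakdown were tested and 0 passed, as was the case for 6 of 9 in the lipoxygenase branch. In cyclic AMP signalling downstream of EP2 and EP4, 16 of 19 were tested and 1, NR4A1, passed. The call on NR4A1 is a call on 1 gene, and the median of its list was −0.067. PTGER1 and PTGER3, which encode the other PGE2 receptors EP1 and EP3, had 8 and 5 counts over all libraries. The 11 other genes with at most 10 counts over all libraries were PLA2G2A, PLA2G2D, PLA2G3, PLA2G5, PLA2G7, PTGDS, HPGDS, PTGDR, PTGFR, ALOX5AP, and ADCY4.

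Without control replicate B at 48 h, 6 of the 39 tested genes of these lists (15.4%) passed, 4 lower and 2 higher, a share close to the 15.9% of all tested genes in that fit. They are given for completeness and are not a result about the lists. The genes that fell were PLA2G16, a phospholipase known from adipose tissue (−0.65, adjusted p = 0.000565), AKR1B1, an aldose reductase with prostaglandin F synthase activity (−0.40, adjusted p = 0.000160), LTA4H, which makes leukotriene B4 (−0.40, adjusted p = 0.000249), and NR4A1 (−0.65, adjusted p = 0.0307). ALOX15, a lipoxygenase, rose (0.81, adjusted p = 0.0386), as did ADCY7, an adenylyl cyclase (0.52, adjusted p = 0.00463). These are log2 fold changes of Arg over control with edgeR's adjusted p, and with all libraries the adjusted p of these 6 genes lay between 0.228 and 0.339.

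**Figure D4:**
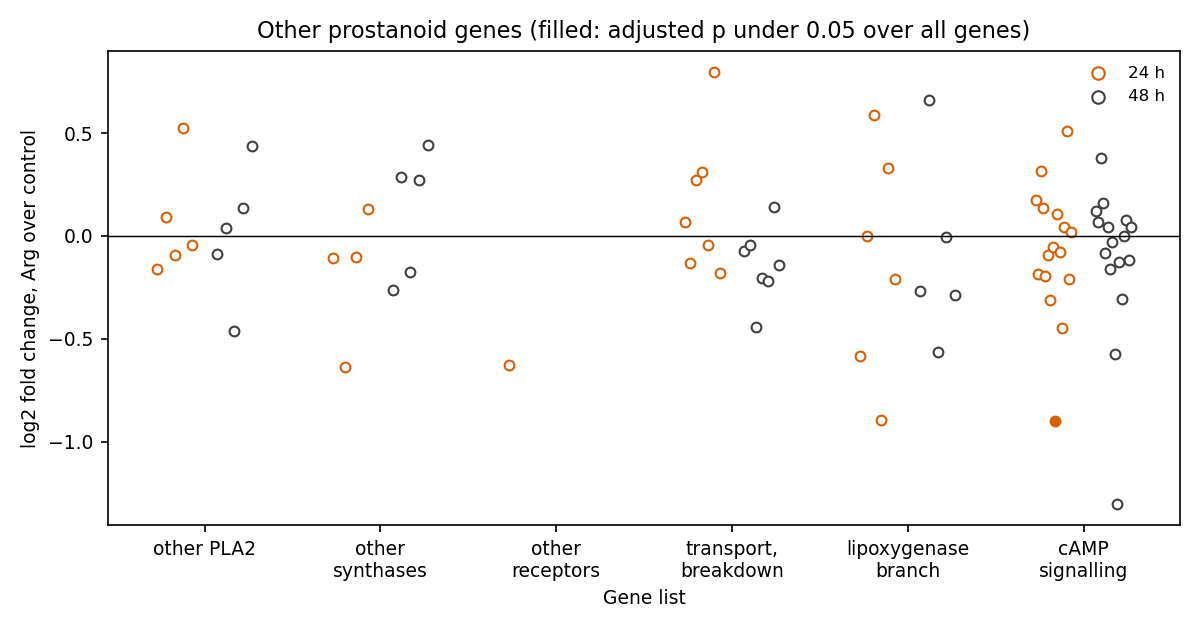
Log2 fold change of Arg over control at 24 h and 48 h for the other prostanoid genes that could be tested, by list. Each point is a gene, and a filled point has an adjusted p under 0.05 over all genes. The 1 filled point is NR4A1 at 24 h (−0.90), among 39 genes at 24 h and 38 at 48 h.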

How the data were processed

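Poly(A) RNA sequencing of TIGK cells was used, with 3 libraries in each of 4 groups. The authors filtered the paired reads with fastp, used STAR to align them to GRCh38/hg38, and used featureCounts for the gene counts, which were deposited raw, without normalization. The tool versions, annotation release, and strand setting are not given in the sources used here. All columns of counts were used.

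Libraries were grouped by their labels. Groups were compared with edgeR 4.0.16 in R 4.3.3 (TMM normalization, filterByExpr, quasi-likelihood test, without a block), with Benjamini–Hochberg adjustment over all tested genes. The difference between the times was the interaction in a model of all 12 libraries. A gene "fell" or "rose" at an adjusted p under 0.05, and "passed" means the same. The standard error is the absolute log2 fold change divided by the square root of the F statistic. CPM values use TMM factors over all 12 libraries, and values per kb divide them by the exonic length in the table. Log2 CPM used a prior count of 2.

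The 9 genes and all other lists were chosen with earlier results of these data known. Named besides the 9 genes were list genes with an adjusted p under 0.05 at either time, list genes with at most 10 counts, the 3 genes most correlated with PTGES, PTGS2, and HPGD (1 of those for PTGS2 is not reported here), and overlapping genes. The genes given for the fit without control replicate B at 48 h (other than NR4A1), the pseudogenes, and the individual markers were named after their values were seen. The symbols PLA2G16, PRXL2B, and ZADH2 are those of the table.

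The labels do not say that the libraries come from separate cultures, so the p-values measure only the spread between these libraries. No permutation test of single values was run. Same-lettered Arg and control libraries did not deviate together (correlations across genes between −0.061 and 0.036), and over time the same correlations lay between −0.047 and 0.135 (control replicate B), so the letters were not used as pairs. The alternatives were DESeq2 1.42.0, its size factors, library size only, no filter, a count minimum of 10 in each library, a single model of all 12 libraries, the replicate letter as a block, and leaving out each library. The scripts were tested on simulated data.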

Additional observations from a re-analysis of the deposited data

How the results depend on the processing

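The numbers of genes that passed were recomputed under each alternative. For the PGE2 genes, leaving out each library gave 1 to 4 at 24 h (4 with all libraries), 0 to 3 at 48 h (0), 0 to 0 for the difference between the times (0), 1 to 4 over time in the control (4), and 2 to 5 over time with Arg (5). For the other prostanoid genes, it gave 0 to 1 at 24 h (1) and 0 to 6 at 48 h (0). Without a filter on low counts, 2 PGE2 genes (PTGS1 and PTGES) and 2 other prostanoid genes passed at 48 h. At 24 h, DESeq2 gave 3 PGE2 genes, all lower, where 7.98% of all tested genes passed. It also gave 2 other prostanoid genes at 24 h, 1 higher and 1 lower. With library size only, 2 PGE2 genes passed over time in the control, where PLA2G4A and PTGER2 no longer did. With the replicate letter as a block, 1 PGE2 gene (PTGES, log2 fold change −0.68) passed at 48 h and 7 passed over time in the control (PTGS1, PTGES, and PTGES2 in addition), and the number stayed within 1.5 times in the other comparisons; the letters do not mark a shared culture or day in the labels, and the deviations of same-lettered libraries correlated above 0.1 in 1 pair only, control replicate B over time (0.135). The cause of these changes was not tested. For most of these fits, the share of all tested genes that passed is not given here. The counts are therefore not read as particular to the listed genes. Of 283 log2 fold changes of the PGE2 genes under alternatives that kept all libraries, 6 no longer passed, 8 newly passed, and 0 passing values changed sign, and of 306 with a library left out, 32 no longer passed, 4 newly passed, and 0 passing values changed sign. Values that did not pass changed sign in some fits with a library left out, among them PTGS2 and PLA2G4A at 48 h and PTGES3 at 24 h. With 4 to 20 counts per library, HPGD is limited by depth.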
